A study of Mus musculus with 6 samples.

Results

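The genes described here are 44 genes of mouse glycolysis and of the cellular response to low oxygen, 22 for the steps from glucose import to lactate export and 22 for the hypoxia response. They were taken by symbol, matched to Ensembl identifiers through GENCODE M21, from 54838 genes in the count tables. RNA sequencing measured them in neutrophils isolated by FACS from corneas that had been infected for 24 h with Pseudomonas aeruginosa of the laboratory strain PAO1. One group of 3 libraries came from wild-type mice and the other group of 3 from Il1a-/- mice, which lack the gene of the cytokine IL-1 alpha. Both groups carried the infection, and neutrophils from blood or uninfected tissue were not analysed here, so no level below can be called induced by low oxygen or by infection. The labels name biological replicates but no animals, and no mouse strain, age or sex, so p-values measure the spread between these libraries. Each library held 22855676 to 33626008 gene counts, of which the 44 genes made up 1.754% to 2.000%.

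Glycolysis splits glucose into pyruvate in the cytosol, and neutrophils, which hold few mitochondria, are known to draw most of their ATP from it and to release the product as lactate. The cornea has no blood vessels, and its oxygen comes largely from the air and the fluids around it. The hypoxia-inducible factor (HIF) is a pair of proteins whose alpha subunit is made all the time and destroyed when oxygen is present, because prolyl hydroxylases mark it for degradation. When oxygen is short, the alpha subunit persists and binds DNA beside genes of glycolysis, lactate export, mitochondrial turnover and lipid storage.

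ACGTG, one form of the HIF core sequence, was searched on both strands of promoter windows, each 300 bases long and running from 250 bases before to 50 bases after a RefSeq start (GRCm38.p6). The form GCGTG was not searched. Windows were present for 40 of the 44 genes, all but Slc2a3, Bnip3l, Epas1 and Ndrg1. The stretches around the matches are shown for the 7 genes with a mean level over 700 TPM, a limit chosen after the levels were seen, because these genes are the most abundant and each of the 7 held a match. They run from 20 bases before the outermost match to 20 bases after the last one, or to the window's end, 5′ to 3′ on the gene's strand, and capitals mark ACGTG, its reverse complement CACGT, or CACGTG where both overlap. For Pkm the stretch is chr9:59657132-59657259 (plus strand), for Hilpda chr6:29272563-29272607 (plus), for Ldha chr7:46845639-46845794 (plus) and for Gapdh chr6:125165724-125165751 (minus). For Pfkfb3, which has 2 windows with 1 match each, only the first is shown, and the match in the other lay inside CACGTG. For Plin2 it is chr4:86670038-86670083 (minus), for Slc16a3 chr11:120949020-120949077 (plus) and for Pfkfb3 chr2:11553965-11554009 (minus).
Pkm: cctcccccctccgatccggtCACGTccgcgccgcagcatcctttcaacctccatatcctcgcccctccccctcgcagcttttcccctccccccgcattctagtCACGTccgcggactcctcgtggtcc
Hilpda: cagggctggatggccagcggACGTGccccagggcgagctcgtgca
Ldha: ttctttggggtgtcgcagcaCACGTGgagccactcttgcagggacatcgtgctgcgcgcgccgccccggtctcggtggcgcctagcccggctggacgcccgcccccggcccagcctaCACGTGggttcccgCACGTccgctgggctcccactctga
Gapdh: tactcgcggctttacgggtgCACGTagc
Plin2: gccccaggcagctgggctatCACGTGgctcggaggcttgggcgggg
Slc16a3: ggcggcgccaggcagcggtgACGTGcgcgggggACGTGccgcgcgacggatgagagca
Pfkfb3: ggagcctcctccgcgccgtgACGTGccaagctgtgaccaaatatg

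Ldha held 3 separate matches, the most among the genes with a window, and 2 of them lay inside CACGTG, the E-box to which other factors also bind. Slc16a3 held 2 matches only a few bases apart, and Pkm held 2 on the reverse strand. The single match of Gapdh lay after its start. A match is a run of letters and not a site shown to be bound.

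Of the 40 genes with a window, 30 (75.0%) held the core in at least 1 window, and 11 (27.5%) held 2 or more matches in a window. Over the 8376 tested genes with a window these shares were 29.93% and 5.29%, and over all 27025 symbols 21.78% and 3.09%. Counted by window, 34 of the 61 windows of the 40 genes (55.74%) held the core. Of all 32851 windows, 19.62% held the core and 7.15% held CACGTG. The genes were collected as known glycolysis and HIF target genes, so the share is a description and was given no test. The median GC content was 63.67% in their 61 windows, against 60.33% in the windows of tested genes, and its part in the match count was not tested. The 40 genes had 61 windows and the 8376 tested genes 10689, and the part of the window number was not tested either.

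The matches did not order the levels. Pfkm and P4ha2, with 2 matches in a window each, were at 0.113 and 0.11 TPM, whereas Eno1, Pfkl, Pfkp and Tpi1 had none in their windows and were at 105 TPM or more. The other genes without a match were Gpi1, Pfkfb4, Eno2, Pdk1, Kdm3a and Adm. Nothing follows about HIF from a window without the letters, since GCGTG and more distant elements were not read.

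**Figure D1:**
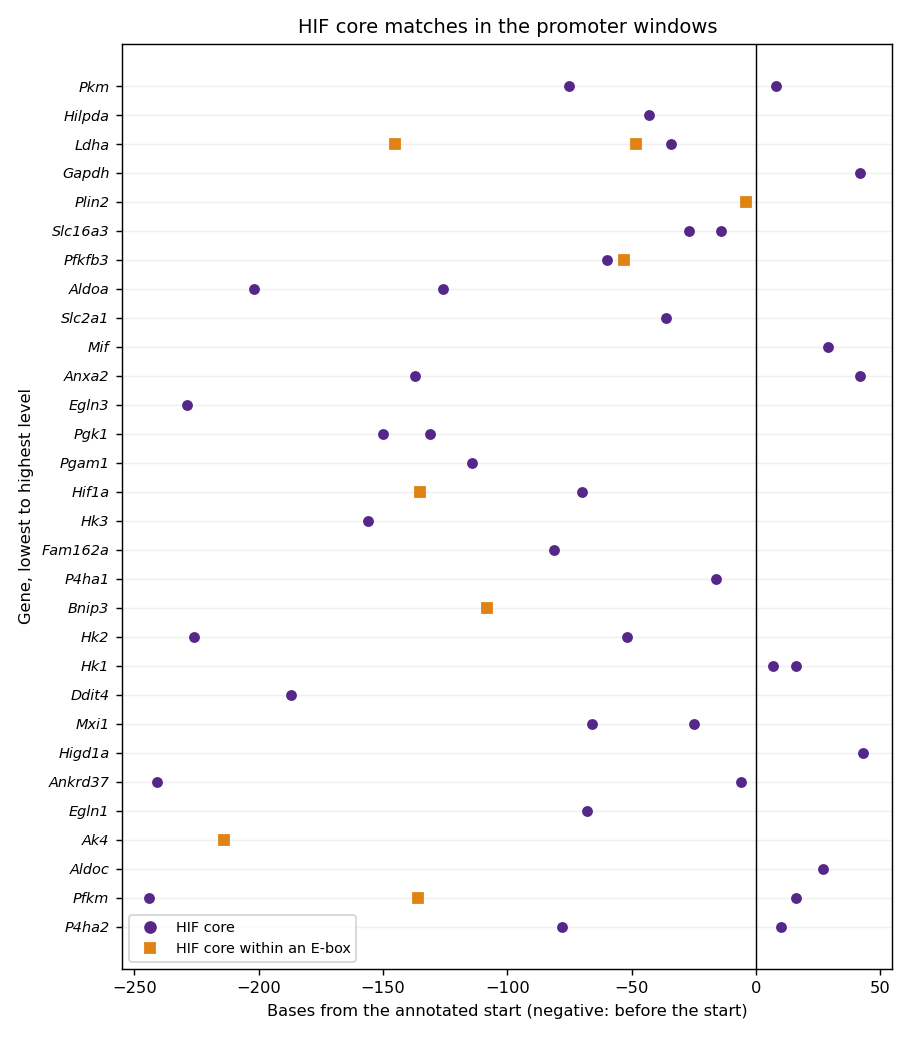
Positions of the HIF core in its ACGTG form in the promoter windows of the 30 genes that hold it (x axis, bases from the annotated start; y axis, genes ordered by level with the most abundant at the top; squares, matches inside an E-box). All windows of a gene are drawn in 1 row, and the Aldoa matches at -126 and -202 are the same site, drawn from overlapping windows. Over the 30 genes the matches ran from -244 (Pfkm) to 43 (Higd1a). In the genes with a mean over 700 TPM they ran from -145 (Ldha) to 42 (Gapdh).

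Levels were compared between genes per length, as TPM, a length-corrected share of each library's transcripts computed here from the counts and the exon length of each gene. Of the 44 genes, 2 were over 1000 TPM, 20 between 100 and 1000, 14 between 10 and 100, 4 between 1 and 10, and 4 under 1 TPM. In TPM the most abundant was Pkm, followed by Hilpda and Ldha, and the least abundant were Epas1, Pfkm and P4ha2. The place of Hilpda rests on the length correction, since in raw counts it lay below Ldha in every library.

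Glucose enters through facilitative transporters. Slc2a1, which encodes GLUT1, was at 459, 404 and 431 TPM in the wild-type and 417, 544 and 446 TPM in the knockout libraries. Slc2a3, which encodes the high-affinity transporter GLUT3, was at 314, 344 and 320.0 TPM in the wild-type and 266, 286 and 229 TPM in the knockout libraries. Slc2a1 exceeded Slc2a3 in all 6 libraries, by 1.57 ± 0.31 times (SD). The third transporter by mean level was Slc2a6, which encodes the intracellular GLUT6 and is not among the 44, at 210.1 ± 28.6 TPM. Slc2a3 exceeded Slc2a6 in 5 of 6 libraries, all but knockout replicate 3. Slc2a2 was at 0 in every library, and Slc2a4 and Slc2a5 were each under 0.01% of the transporter sum.

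The order of the transporters depended on the length correction. In raw counts Slc2a3 took 48.4% of the transporter counts and Slc2a1 36.1%, since the exons annotated for Slc2a3 are longer.

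Hexokinase traps glucose by phosphorylation, and 3 forms were present. Hk3, the form known from myeloid cells, was at 134, 106 and 119 TPM in the wild-type and 128, 109 and 123 TPM in the knockout libraries. Hk2, the inducible form, was at 62.2 ± 12.4 TPM (SD over 6 libraries), and Hk1, the widely made form, at 56.1 ± 4 TPM. Hk3 was the highest in all 6 libraries, while Hk2 exceeded Hk1 in 4 of 6, so these 2 did not differ beyond their spread. Without the length correction Hk1 led with 37.1% of the counts against 34.3% for Hk3, so the first place of Hk3 also rests on that correction.

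Gpi1, which turns glucose phosphate into fructose phosphate, was at 57.7 ± 12.5 TPM and was the lowest of the steps that 1 gene serves. Pkm exceeded it 29.8 ± 5.4 times. Its unstranded count leaves out reads in an overlap with Gm26762 on the other strand, and a count that includes them was 33.0% larger.

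Phosphofructokinase commits sugar to glycolysis. Pfkl, the liver form, was at 132, 118 and 158 TPM in the wild-type and 135, 165 and 139 TPM in the knockout libraries. Pfkp, the platelet form, was at 105 ± 13.2 TPM and lay below Pfkl in all 6 libraries. Pfkm, the muscle form, held 27 counts in the 3 wild-type libraries together and 2 in the knockout, and it was the only one of the 44 genes that did not pass the expression filter. Pfkm counts were mostly those of wild-type replicate 3, which read 0.740 CPM against 0 to 0.150 CPM elsewhere.

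Pfkfb3 encodes the enzyme that makes the fructose bisphosphate activator of phosphofructokinase. It was at 631, 697 and 884 TPM in the wild-type and 710.4, 774 and 690.3 TPM in the knockout libraries, 32.2 ± 8.7 times the level of Pfkfb4 (23.7 ± 4.62 TPM), its relative with more phosphatase activity. The highest of the 6 values was in wild-type replicate 3 and the lowest in wild-type replicate 1, so the groups overlapped.

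Each of the later steps had 1 main gene. Aldoa, the aldolase of muscle and many other tissues, was at 604, 603 and 622 TPM in the wild-type and 650.4, 667 and 587 TPM in the knockout libraries. The annotation holds a second Aldoa entry, which was left out and had 0 to 2 counts per library. The brain-type aldolase gene Aldoc was at 1.11 ± 0.813 TPM, and Tpi1, the triose phosphate isomerase, at 361 ± 29.4 TPM. Gapdh, which makes the NADH of glycolysis, was at 824, 764 and 722 TPM in the wild-type and 767, 738 and 738 TPM in the knockout libraries. Pgk1, the phosphoglycerate kinase and an ATP-making step, was at 174, 175 and 186 TPM in the wild-type and 174, 207 and 159 TPM in the knockout libraries. Gapdh exceeded Pgk1 in level by 4.26 ± 0.45 times. Aldoa, Tpi1 and Pgk1 were each highest in knockout replicate 2 and lowest in knockout replicate 3, so that their groups overlapped.

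Pgam1, the phosphoglycerate mutase, was at 149, 170.2 and 153 TPM in the wild-type and 155, 177 and 132 TPM in the knockout libraries. Eno1, the enolase, was at 509.6, 526 and 543 TPM in the wild-type and 552, 536 and 469 TPM in the knockout libraries, and the neuronal Eno2 at 0.351 ± 0.169 TPM. Pgam1 and Eno1 were both lowest in knockout replicate 3, with groups that overlapped. Pkm, the pyruvate kinase gene, was at 1705, 1701 and 1881 TPM in the wild-type and 1699.8, 1639.6 and 1382 TPM in the knockout libraries. The gene count does not tell the splice forms of Pkm apart, and 15.34% of the exon bases of Pkm are shared with Gm49759 on the same strand, where reads may be left out of the count. Pklr, the pyruvate kinase of liver and red cells, was at 0 in every library.

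Ldha, which turns pyruvate into lactate, was at 930.1, 977 and 1015 TPM in the wild-type and 969, 1179 and 808 TPM in the knockout libraries. Pkm exceeded Ldha in all 6 libraries, by 1.71 ± 0.17 times. Slc16a3 encodes MCT4, which carries lactate out of the cell, and was at 794, 767 and 648 TPM in the wild-type and 861, 709 and 703 TPM in the knockout libraries. Its partner protein basigin, encoded by Bsg, which is not among the 44, was at 286 ± 36.2 TPM.

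Reads that match a near-identical gene copy equally well may be left out of these counts, and copies were found for 16 of the 44 genes. By this sequence rule Gapdh had 190 such copies and Ldha 16. Those of Gapdh include the protein-coding gene Peli2, matched over 52.0% of a transcript, and all reads of Peli2 enter the copy counts. The counts in the copies came to at most 3.68% of the counts of copy and gene together, in Higd1a, and to 1.83% to 2.12% for Gapdh. What the copies removed from the gene counts was not tested, so the levels of these genes may be too low.

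**Figure D2:**
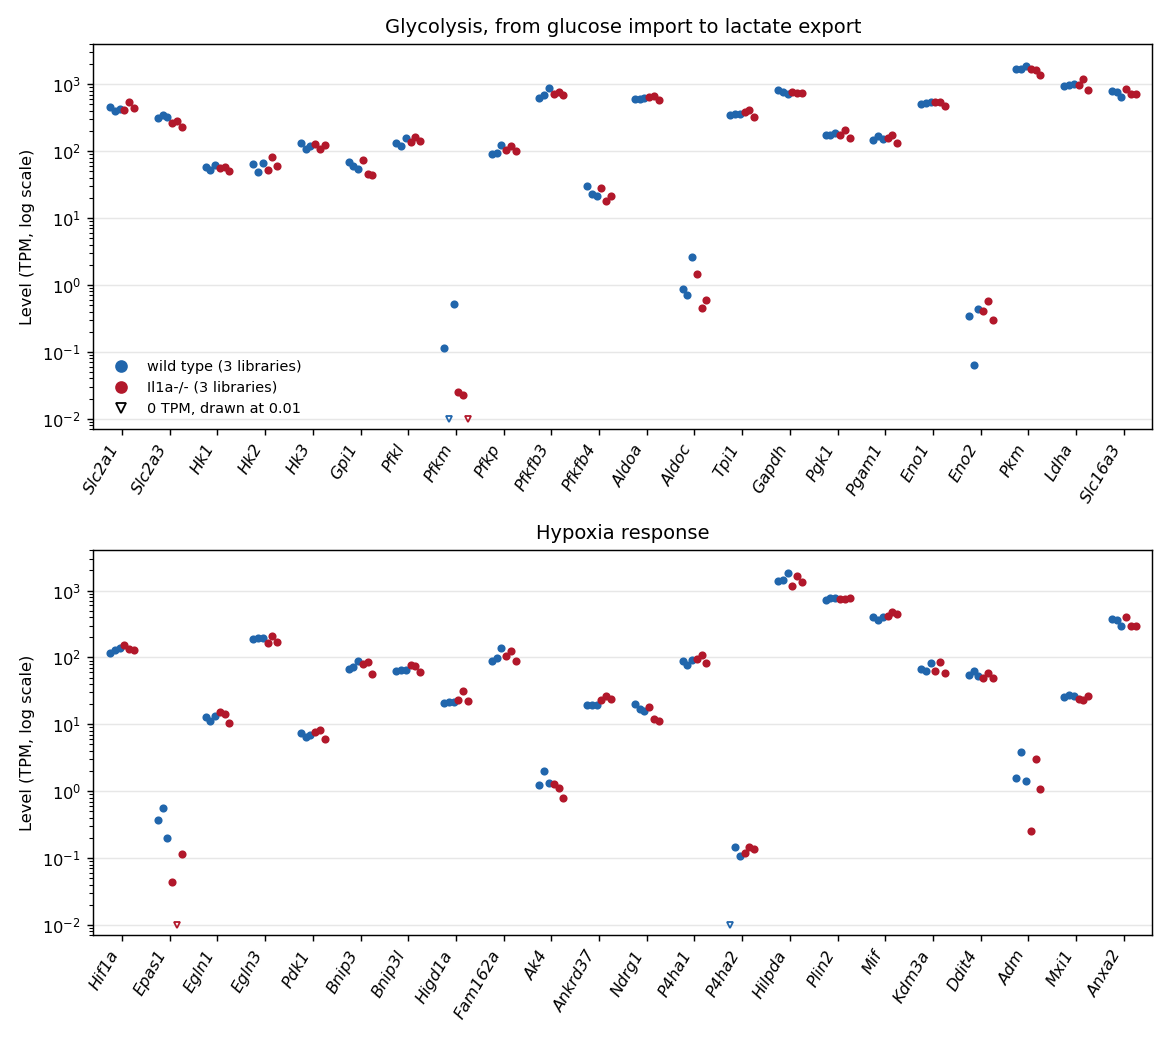
Level of each of the 44 genes in each library (TPM, log scale; blue, wild type; red, Il1a-/-; open triangles, 0 TPM drawn at 0.01). Pkm, Hilpda and Ldha lie near the top, while Pfkm, Aldoc, Eno2, Epas1, P4ha2, Ak4 and Adm lie at or under 4 TPM in every library.

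The isoforms of a step were next set against each other as shares of that step's summed TPM, which gives the part of each paralog in the transcripts of that step. For 11 of 17 steps 1 gene held over 95% in every library. Pkm held 100% of the Pkm and Pklr sum and Pgk1 100% of the Pgk1 and Pgk2 sum. Ldha held 99.92% ± 0.0384 (SD, n = 6) against the heart form Ldhb and the testis form Ldhc. Aldoa held 99.82% ± 0.128, Gapdh 99.99% ± 0.0127 against the testis gene Gapdhs, and P4ha1, the collagen prolyl hydroxylase, 99.88% ± 0.0648 against P4ha2.

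Slightly less one-sided were Pgam1 at 98.4% ± 0.926 against the muscle form Pgam2, Eno1 at 96.8% ± 0.202, Pfkfb3 at 96.8% ± 0.876 and Slc16a3 at 96.6% ± 0.438 of the lactate transporters. In the last of these steps nearly all of the remainder was Slc16a1, which encodes MCT1. Most of the rest of the enolase sum was Eno1b at 2.64% ± 0.11, a near copy of Eno1, so that this share is uncertain.

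The other 6 steps were mixed. They were glucose import, hexokinase, phosphofructokinase, HIF hydroxylation, control of pyruvate dehydrogenase and the BNIP3 pair. The transporters split into 47.1% ± 3.71 Slc2a1, 30.7% ± 4.26 Slc2a3 and 22.1% ± 3.60 Slc2a6. The hexokinases split into 50.4% ± 3.97 Hk3, 26.0% ± 3.94 Hk2 and 23.6% ± 1.19 Hk1. Phosphofructokinase was 57.3% ± 1.21 Pfkl and 42.6% ± 1.18 Pfkp, with a spread between libraries of about 1 percentage point. In raw counts Pfkp held 59.9% and Pfkl 40.1%.

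Between the genotypes, 49 shares were compared by exact two-sided permutation tests, which with 3 against 3 libraries cannot give a p under 0.1. Slc2a3 took 32.9, 36.5 and 33.5% in the wild-type and 28.6, 28.0 and 24.9% in the knockout libraries. These groups did not overlap, and the knockout mean was lower by 7.12 percentage points (exact permutation p = 0.1, adjusted over the 49 shares 0.82). The only other pair at that exact p was Hif1a and Epas1, described below.

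**Figure D3:**
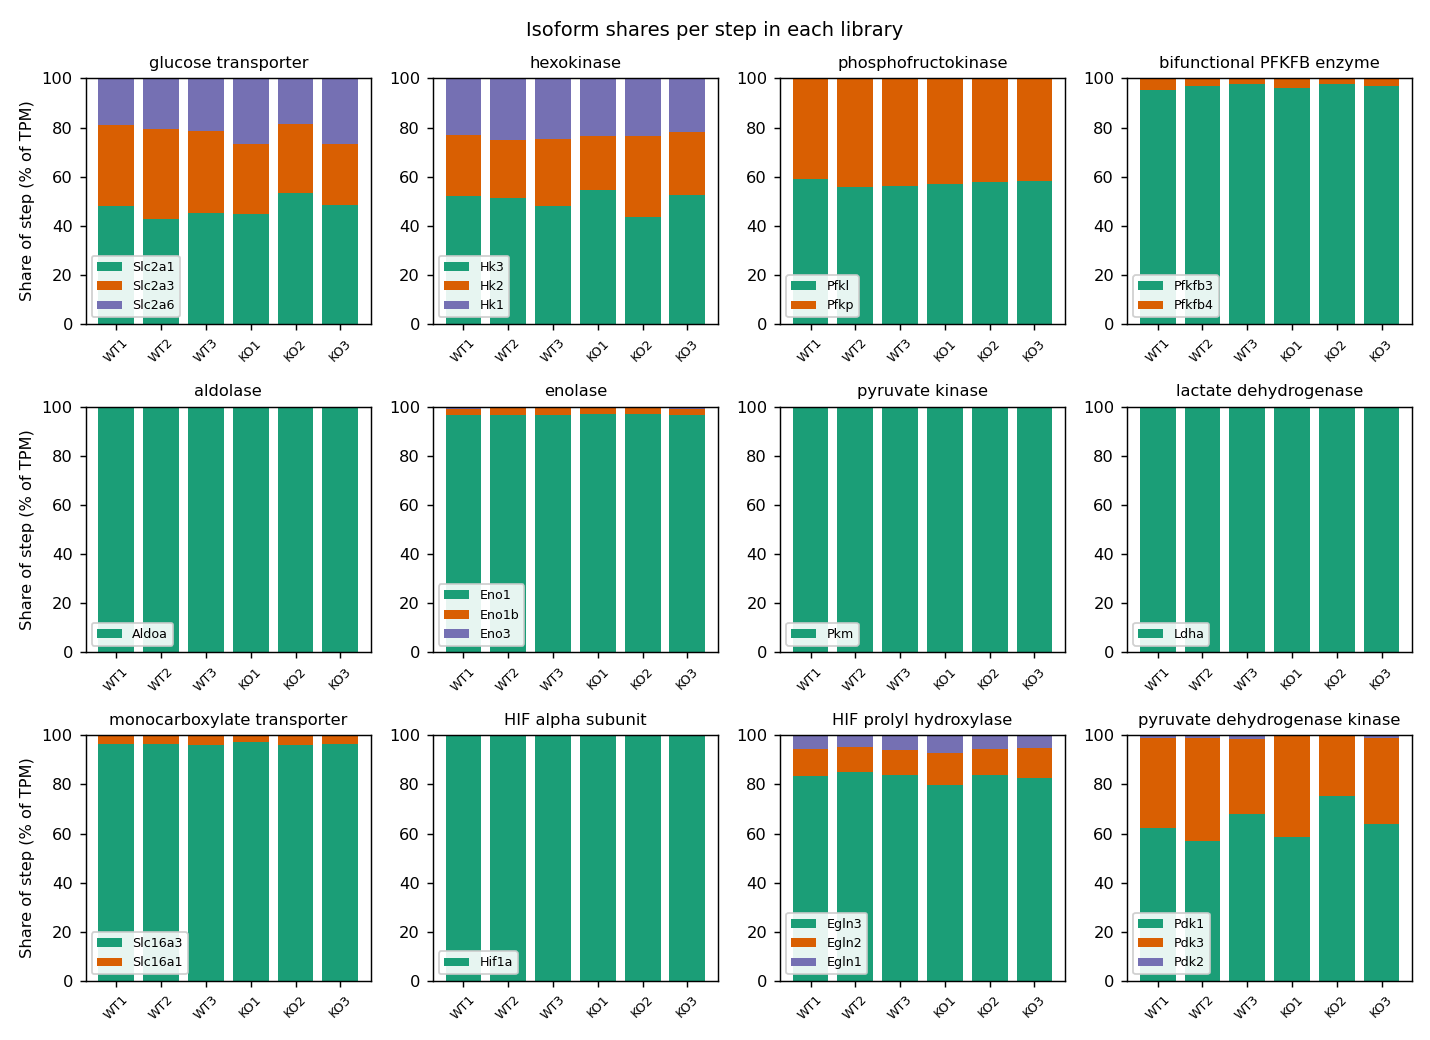
Share of each isoform in 12 steps, in percent of the step's summed TPM, for each library (WT, wild type; KO, Il1a-/-; isoforms with a mean under 0.5% in grey). Pkm, Ldha, Aldoa and Hif1a fill their bars, while the transporters, hexokinases and phosphofructokinases are split in all 6 libraries.

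Of the oxygen-sensing genes, Hif1a, the main HIF alpha subunit of myeloid cells, was at 117, 131 and 137 TPM in the wild-type and 152, 133 and 130.3 TPM in the knockout libraries. Epas1, which encodes the related HIF-2 alpha, was at 0.369, 0.553 and 0.201 TPM in the wild-type and 0.0445, 0 and 0.115 TPM in the knockout libraries. Hif1a made up 99.83% ± 0.167 of the alpha subunit sum, and Hif3a was at 0. Its partner Arnt, chosen after its values were seen, was at 21.6 ± 2.21 TPM.

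The hydroxylases that mark HIF for degradation differed widely in level. Egln3, which encodes PHD3 and is itself a HIF target, was at 189.6, 194 and 194 TPM in the wild-type and 167, 212 and 171 TPM in the knockout libraries. Egln1, which encodes PHD2, was at 12.9 ± 1.70 TPM, and Egln2, not among the 44, at 25.2 ± 1.69 TPM. Egln3 exceeded Egln1 14.8 ± 2.1 times and Egln2 7.5 ± 0.89 times. It held 83.1% ± 1.82 of the 3, with Egln2 at 11.2% ± 1.18 and Egln1 at 5.70% ± 0.798.

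A further group of HIF targets is known to limit the use of oxygen by mitochondria. Pdk1 encodes a kinase that inhibits pyruvate dehydrogenase. It was at 7.34, 6.42 and 6.98 TPM in the wild-type and 7.67, 8.27 and 6.07 TPM in the knockout libraries. Pdk1 held 64.2% ± 6.71 of the pyruvate dehydrogenase kinases, with Pdk3 at 35.0% ± 6.68. Bnip3 and Bnip3l encode receptors that send mitochondria to autophagy. Bnip3 was at 66.2, 72.0 and 89.6 TPM in the wild-type and 79.9, 85.6 and 55.9 TPM in the knockout libraries, and Bnip3l was at 67.2 ± 6.58 TPM. Bnip3 exceeded Bnip3l in 5 of 6 libraries, whereas in raw counts Bnip3l held 60.6% of the pair and Bnip3 39.4%. Fam162a, a mitochondrial protein tied to hypoxic cell death, was at 107 ± 20.4 TPM, Higd1a, a respiratory chain factor, at 23.6 ± 4.07 TPM, and Ak4, a mitochondrial adenylate kinase, at 1.29 ± 0.392 TPM.

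The level of Bnip3 has a wide range of uncertainty. The kit leaves reads without a strand, and a read where 2 genes of opposite strand overlap enters neither gene in the unstranded column but both genes in the sum of the strand columns. As far as this overlap goes, the count of a gene lies between the 2. Bnip3 shares 22.25% of its exon bases with Gm45507, and its strand sum was 144% larger than its unstranded count. For Ankrd37 the strand sum was 75.6% larger, for Ndrg1 57.6%, for Fam162a 26.7%, for Mxi1 25.7%, for Hif1a 24.8%, for Slc2a1 17.3% and for Aldoa 14.0%. With the strand sum, Bnip3 took 72.8% of the Bnip3 and Bnip3l total, and Slc2a1 51.1% of the transporters.

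Lipid storage genes were among the highest of all. Hilpda, which encodes an inhibitor of lipid droplet breakdown, was at 1382, 1425 and 1816 TPM in the wild-type and 1154, 1663 and 1340.3 TPM in the knockout libraries. Plin2, which encodes a lipid droplet coat protein, was at 721, 780.0 and 779 TPM in the wild-type and 751, 738 and 761 TPM in the knockout libraries. In TPM Hilpda was above Plin2 in all 6 libraries, by 1.94 ± 0.30 times. This order rests on the length correction. In raw counts Plin2 was above Hilpda in every library, with 27054 against 16273 counts in wild-type replicate 1. Plin2 had the narrowest range of the 44 genes, 1.08 times from lowest to highest.

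The remaining hypoxia genes covered a wide range. Mif, a cytokine, was at 419 ± 39.6 TPM, and Anxa2, a phospholipid-binding annexin, at 341 ± 48.4 TPM. P4ha1 was at 87.5, 77.9 and 92.4 TPM in the wild-type and 95.4, 109 and 83.8 TPM in the knockout libraries, whereas P4ha2 was at 0.11 ± 0.0559 TPM. Kdm3a, a histone demethylase, was at 70.1 ± 11.4 TPM, and Ddit4, an inhibitor of growth signalling through mTOR, at 54.4 ± 5.80 TPM. Mif and P4ha1 were highest in knockout replicate 2 and lowest in wild-type replicate 2, and Anxa2 was lowest in knockout replicate 2. Mxi1, an antagonist of Myc, was at 25.7 ± 1.62 TPM, Ankrd37 at 21.9 ± 3.03 TPM and Ndrg1, a stress-responsive gene, at 15.8 ± 3.45 TPM. Adm, which encodes the vasodilator adrenomedullin, was at 1.87 ± 1.33 TPM and ran from 0.256 TPM in knockout replicate 1 to 3.87 TPM in wild-type replicate 2.

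In the order of all 44 levels, most neighbours overlapped in their ranges over the 6 libraries. The breaks without overlap in TPM were between Aldoa and Eno1, Slc2a3 and Egln3, Ddit4 and Mxi1, Egln1 and Pdk1, and Pdk1 and Adm. Some of these breaks rest on the length correction. In raw counts Eno1 was above Aldoa, Mxi1 above Ddit4 and Pdk1 above Egln1 in every library. Of the closest pairs, Gapdh exceeded Plin2 in 2 of 6 libraries and Tpi1 exceeded Anxa2 in 3 of 6.

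The study's comparison is what loss of IL-1 alpha did to these genes. Il1a itself marked the labels: it fell to 4.47 ± 1.37 CPM (TMM-normalized counts relative to library size) in the knockout, from 6696 ± 1881 CPM (SD, n = 3 each; log2 fold change -10.55, edgeR quasi-likelihood test, adjusted p = 5.3e-07). None of the 43 tested glycolysis and hypoxia genes passed the test at an adjusted p under 0.05 (edgeR, Benjamini-Hochberg over 11924 genes). In that fit 0.0755% of all tested genes were called higher and 0.0252% lower in the knockout. DESeq2 and limma-voom also called 0 of the 43. At an unadjusted p under 0.05, 0 of the 43 were higher, where 3.44% of all tested genes were, and 3 were lower, where 2.55% were. Of the 43 intervals, 37 lay within a 2-fold change either way.

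**Figure D4:**
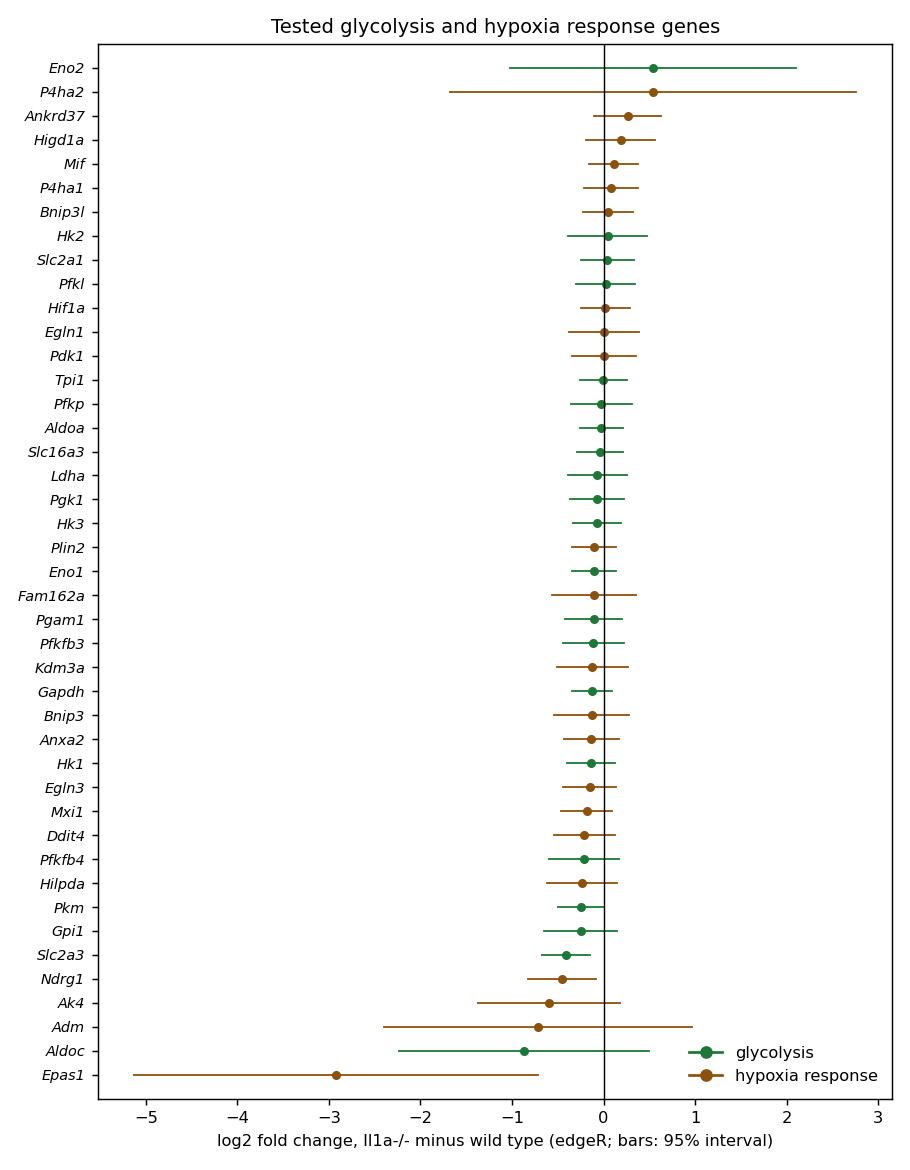
Log2 fold change, Il1a-/- minus wild type, of the 43 tested genes with 95% intervals (edgeR; green, glycolysis; brown, hypoxia response). Abundant genes have intervals of well under 2-fold either way, and the wide intervals belong to Epas1, Aldoc, Adm, Ak4, Eno2 and P4ha2; 30 of the 43 points lie left of 0.

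Slc2a3 (ENSMUSG00000003153, GRCm38 chr6:122727809-122801640, minus strand) had the smallest p of the 43. It was at 910.3, 1063 and 996 CPM in the wild-type and 729, 832 and 675 CPM in the knockout libraries. Each knockout library was below each wild-type library, and the means were 989.8 ± 76.5 CPM for wild type and 746 ± 79.7 CPM for Il1a-/-, with SD over 3 libraries each. The log2 fold change was -0.41 (SE 0.12, 95% interval from -0.67 to -0.15, unadjusted p = 0.0059, edgeR adjusted p = 0.57). Slc2a1, the other main glucose transporter, was at 643, 606 and 649 CPM in the wild-type and 554, 766 and 635 CPM in the knockout libraries, with the highest value in knockout replicate 2. Its groups overlapped (log2 fold change 0.04, 95% interval from -0.25 to 0.33).

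Ndrg1 was at 53.0, 48.5 and 45.2 CPM in the wild-type and 44.9, 31.8 and 30.4 CPM in the knockout libraries. Knockout replicate 1 was only just below the lowest wild-type library, and the other 2 knockout libraries were well below it. The log2 fold change was -0.45 (SE 0.17, unadjusted p = 0.023, edgeR adjusted p = 0.76).

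Epas1 rested on few counts, 78 in the 3 wild-type libraries together and 9 in the knockout, at 0.823, 1.32 and 0.482 CPM in the wild-type and 0.0943, 0 and 0.262 CPM in the knockout libraries. The ratio of pooled counts per effective library size, knockout to wild type, was 0.118 with a 95% interval from 0.0519 to 0.235 that covers counting error only. The edgeR log2 fold change was -2.92 (unadjusted p = 0.014, adjusted p = 0.69). Its share of the HIF alpha subunit sum was 0.294% ± 0.138 in wild type and 0.0393% ± 0.0451 in the knockout (SD, n = 3 each, exact permutation p = 0.1). Epas1 is known from endothelium, and the summed CPM of 8 endothelial markers was 7.6, 6.08 and 0.675 for wild type, against 5.41, 3.67 and 0.917 for the knockout. The share of that RNA in the Epas1 counts was not tested.

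Of the other genes whose groups did not overlap in CPM, Pkm was at 3408, 3633 and 4042 CPM in the wild-type and 3220.3, 3294 and 2807 CPM in the knockout libraries. Its log2 fold change was -0.25 (SE 0.11, unadjusted p = 0.052, edgeR adjusted p = 0.84). Gapdh was at 1361, 1348 and 1281 CPM in the wild-type and 1201, 1225 and 1238 CPM in the knockout libraries and had a log2 fold change of -0.12 (edgeR adjusted p = 0.94). In CPM, Ankrd37 was the only one of the 43 that was higher in all knockout libraries than in all wild-type libraries. It was at 11.8, 12.7 and 12.9 CPM in the wild-type and 13.5, 16.2 and 15.1 CPM in the knockout libraries, and its level is uncertain because of the overlap given above.

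Whether groups overlapped depended in part on the scaling, which was examined after the data were seen. In TPM and in counts per library size alone, Slc2a3, Pkm, Epas1 and Ankrd37 still did not overlap, whereas Gapdh and Ndrg1 did. Higd1a was then higher in all knockout libraries, and so was Mif in TPM.

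In CPM, 1 of the 43 genes had knockout libraries wholly above wild type, where 6.12% of all tested genes did, and 5 had them wholly below, where 5.48% did. The median log2 fold change of the 43 was -0.11, against 0.0045 over all 11924 tested genes, and 30 of the 43 (69.8%) were below 0 against 49.3% of all genes. Among the glycolysis genes 17 of 21 tested were below 0 (median -0.07) and among the hypoxia genes 13 of 22 (median -0.11). Some further lists had like medians. They were -0.10 for pyruvate oxidation and the citrate cycle (68.4% below 0) and -0.10 for the other hypoxia genes (59.3%). The neutrophil markers were at -0.09 (9 of 10 below 0). Other lists did not share this sign. Their medians were 0.15 for the other glycolysis genes (40% below 0), 0.03 for the pentose phosphate pathway (25%) and 0.0053 for glycogen metabolism (50%). The median of the monocyte and macrophage markers was 1.73, with 11 of 12 above 0. For the 43 genes the median moved to -0.02 without wild-type replicate 3 and to -0.02 without knockout replicate 3.

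**Figure D5:**
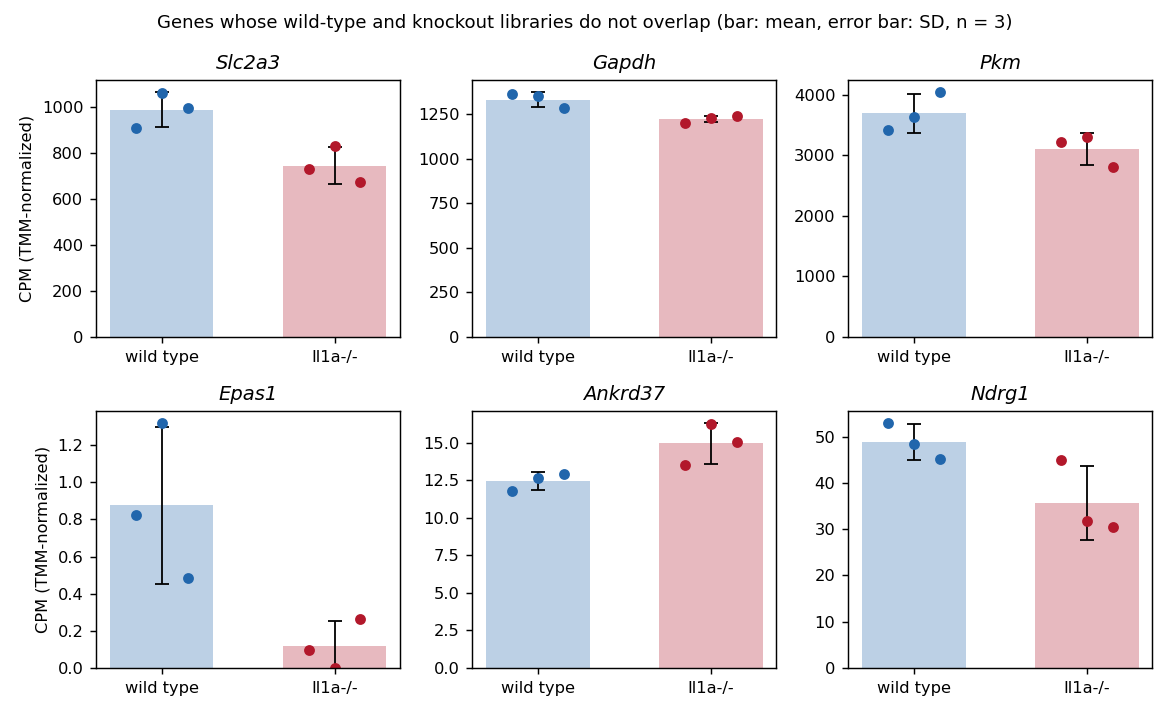
CPM of the 6 genes whose wild-type and Il1a-/- libraries do not overlap on this TMM-normalized scale (points, libraries; bars, means; error bars, SD, n = 3 each; y axes start at 0 and differ in scale). Slc2a3, Gapdh, Pkm, Epas1 and Ndrg1 are lower and Ankrd37 is higher in the knockout; Gapdh and Ndrg1 overlap in TPM, and none passes the adjusted test.

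Within the genotypes, single libraries moved with these genes. Knockout replicate 3, the library of lowest depth, was the lowest of the 6 for 17 of the 43 (39.5%, against 16.0% of all tested genes) and the highest for 0. Wild-type replicate 3 and knockout replicate 2 were each the highest for 14 (32.6%, against 15.6% and 19.5% of all tested genes). Knockout replicate 2 also stood apart from the other libraries on the main principal component of all genes. Without knockout replicate 2 the median log2 fold change of the 43 was -0.15.

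In Hilpda, Ldha, Slc16a3, Hif1a and Egln3, all abundant, the groups overlapped. Hilpda was at 714 ± 131 CPM for wild type and 606 ± 127 CPM for Il1a-/- (log2 fold change -0.23, 95% interval from -0.62 to 0.15), with knockout replicate 1 lowest and wild-type replicate 3 highest. Ldha was at 1351 ± 109.5 CPM for wild type and 1289.5 ± 249 CPM for Il1a-/- (log2 fold change -0.07, 95% interval from -0.39 to 0.25), and its highest and lowest values were both in the knockout. Slc16a3 was at 1637 ± 137 CPM for wild type and 1589.5 ± 125 CPM for Il1a-/- (log2 fold change -0.04, 95% interval from -0.29 to 0.21). Hif1a was at 317 ± 36.4 CPM for wild type and 322 ± 15.1 CPM for Il1a-/- (log2 fold change 0.02, 95% interval from -0.25 to 0.28), and Egln3 at 215 ± 11.4 CPM for wild type and 193 ± 30.0 CPM for Il1a-/- (log2 fold change -0.15, 95% interval from -0.45 to 0.14). Differences within these intervals were not detectable with these libraries.

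The sorted cells carried neutrophil markers, with S100a9 and S100a8 the highest, and the summed CPM of 10 such markers was 28762 to 35686 in every library. In bulk samples fewer cells of a type and less RNA per cell cannot be told apart. The 12 monocyte and macrophage markers were led by Csf1r and Adgre1. Their summed CPM was at most 305 in the wild-type libraries and at least 354 in those of the knockout. Of the 12, 0 were called and 7 were higher at an unadjusted p under 0.05, where 3.44% of all tested genes were. Knockout libraries lay wholly above wild type for 5 of the 12 and wholly below for 1, where 6.12% and 5.48% of all tested genes did. The lowest log2 fold change among them was -0.30. The corneal epithelial sum, led by Krt14, was 57.0 to 183 CPM in wild type and 53.3 to 151 CPM in the knockout. The keratocyte sum, led by Dcn and Col1a1, was 19.7 to 36.7 CPM in wild type and 12.4 to 41.8 CPM in the knockout. The other marker sums were at most 51.0 CPM for erythroid cells and platelets (led by Ppbp and Pf4), 13.1 for eosinophils (Siglecf, Ccr3), 10.6 for dendritic cells (Ccr7, Clec9a) and 7.6 for endothelium (Lyve1, Emcn). They were at most 3.28 CPM for T and NK cells (Cd3d, Il7r), 0.493 for B cells (Cd79a) and 0.0437 for mast cells and basophils, and Cd3e, Cd4, Cd8a, Cd79b, Mcpt8, Fcer1a, Ms4a2, Ncr1 and Klrb1c were at 0 in every library. What these cells added to the 44 genes was not tested.

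Genes of connected pathways were read from the same fit, and 0 of them was called. At an unadjusted p under 0.05, 3.44% of all tested genes were higher and 2.55% lower, to be set beside the counts of each list below. Of 33 other glycolysis genes, 15 were tested, with 0 higher and 1 lower at an unadjusted p under 0.05. Bsg, Slc2a6 and Slc16a1 were the most abundant, the last at 26.3 ± 2.23 TPM. Bpgm, which makes the bisphosphoglycerate of red cells, was at 2.89 ± 0.789 CPM for wild type and 1.64 ± 0.428 CPM for Il1a-/- (unadjusted p = 0.049, edgeR adjusted p = 0.83), and Ldhd, a D-lactate dehydrogenase, at 0.670 ± 0.382 CPM for wild type and 1.40 ± 0.626 CPM for Il1a-/-.

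Of 36 other hypoxia genes, 27 were tested, with 2 higher and 0 lower at an unadjusted p under 0.05. Knockout libraries lay wholly above wild type for 3 of the 27 and wholly below for 2, where 6.12% and 5.48% of all tested genes did. The log2 fold change was below 0 for 16 of the 27. Rab20, a small GTPase gene, was the most abundant at 1276 ± 95.8 TPM, followed by the repressor gene Bhlhe40 at 453 ± 52.8 TPM and Wsb1, a ubiquitin ligase subunit, at 370.3 ± 26.2 TPM. Hmox1, which encodes the heme-degrading enzyme, was at 232, 209.7 and 179.8 CPM in the wild-type and 264, 280.4 and 282 CPM in the knockout libraries. Every knockout value was above every wild-type value (log2 fold change 0.41, 95% interval from 0.14 to 0.68, unadjusted p = 0.0072, edgeR adjusted p = 0.57). Nos2, the inducible nitric oxide synthase, was at 196, 182 and 128 CPM in the wild-type and 253, 237 and 234 CPM in the knockout libraries, again without overlap (log2 fold change 0.52, 95% interval from 0.17 to 0.86, unadjusted p = 0.0076, edgeR adjusted p = 0.58). The monocyte and macrophage marker sum given above was also higher in all 3 knockout libraries, and its part in these 2 genes was not tested.

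The pentose phosphate pathway, which makes the NADPH of the oxidative burst, was led by Taldo1 at 232 ± 50.4 TPM, with G6pdx at 29.0 ± 4.84 TPM and Pgd at 29.0 ± 6.73 TPM. Of its 8 tested genes, 1 was higher and 0 lower at an unadjusted p under 0.05. That gene, Pgls, was at 1.53 ± 0.223 CPM for wild type and 2.80 ± 0.674 CPM for Il1a-/- (unadjusted p = 0.028, edgeR adjusted p = 0.78), and Rpe, with the next smallest p, at 9.14 ± 1.17 CPM for wild type and 7.40 ± 1.78 CPM for Il1a-/-.

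Glycogen is the sugar store on which neutrophils can draw. Its genes were led by Pygl, the liver-type phosphorylase, at 79.4 ± 17.2 TPM, Pgm2 at 64.3 ± 2.28 TPM and Ugp2 at 35.0 ± 4.56 TPM. Of 12 tested genes 1 was higher and 1 lower at an unadjusted p under 0.05. Gaa, the lysosomal glucosidase, was at 3.81 ± 1.79 CPM for wild type and 8.08 ± 2.54 CPM for Il1a-/- (edgeR adjusted p = 0.67), and Gyg, the glycogenin that primes glycogen, at 15.8 ± 2.39 CPM for wild type and 11.3 ± 2.54 CPM for Il1a-/- (edgeR adjusted p = 0.82).

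Genes of pyruvate oxidation and the citrate cycle were far below those of lactate production. Mdh2 was at 55.9 ± 12.9 TPM, Dld at 37.8 ± 1.92 TPM and Sdha at 24.5 ± 2.83 TPM, and Pdha1, the pyruvate dehydrogenase subunit chosen after its values were seen, at 5.43 ± 1.22 TPM. Ldha exceeded Pdha1 154 to 223 times over the 6 libraries. The summed level of the 21 listed genes was 219 ± 22 TPM, against 7208 to 8466 TPM per library for the 22 glycolysis genes. Of 19 tested, 0 were higher and 0 lower at an unadjusted p under 0.05, and Fh1 and Idh3a, with the smallest p, were at 0.904 ± 0.639 CPM for wild type and 0.569 ± 0.312 CPM for Il1a-/- and at 1.22 ± 0.787 CPM for wild type and 0.573 ± 0.531 CPM for Il1a-/-.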

How the data were processed

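RNA was sequenced from 6 libraries of sorted corneal neutrophils, 3 per genotype. Per the labels' protocols, the kit was Clontech SMART-seq v4, for very small amounts of RNA. Tools named in the submitters' processing notes are STAR 2.7.8a, Trimmomatic 0.39 and FastQC 0.11.9, with the builds mm10 and GRCm38. The annotation release is not given in the sources used here. Raw gene counts were deposited per library in an unstranded column, which was used, and 2 strand columns.

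Symbols, positions and exon lengths came from GENCODE M21. The 44 genes, the further lists and the markers were chosen with earlier results of these data known. Named from each further list were the 3 most abundant genes, the 2 with the smallest p and any called, and from each marker list the 2 most abundant. The isoform groups were set after the files were read.

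All 11924 genes passing edgeR's filterByExpr were tested with edgeR 4.0.16 (TMM, robust quasi-likelihood, Benjamini-Hochberg, threshold 0.05), knockout against wild type. TPM used the union of annotated exons. Copies were found with blastn 2.17.0 (at least 90% identity over 50% of the copy). The fit was also run on counts simulated from its own mean levels and dispersions, which cannot check its model against these libraries. Alternatives were other scalings and filters, DESeq2 1.42.0, limma-voom 3.58.1, a replicate block, the strand sum, summed copies, other lengths and each library left out. Reads carried no molecular tags, so counting intervals cover counting error only.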

Additional observations from a re-analysis of the deposited data

How the results depend on the processing

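Under all 16 alternatives 0 of the glycolysis and hypoxia genes was called, although the calls over all genes ranged from 7 to 185 against 12, with 69 by DESeq2, 185 without a filter, 21 with the filter at 5 CPM and 24 without knockout replicate 1. Leaving out wild-type replicate 1 or 2 gave 7 each, and leaving out knockout replicate 3 gave 8. The median log2 fold change stayed below 0, from -0.15 to -0.02 with a library left out and -0.04 with library size alone, where the median of all genes was 0.06. Slc2a3 ranged from -0.51 to -0.34 (adjusted p from 0.18 to 1), Ndrg1 from -0.66 to -0.35 and Epas1 from -4.11 to -2.32. The unadjusted p of Ndrg1 was 0.062 without wild-type replicate 1, 0.067 without knockout replicate 2, 0.088 without knockout replicate 3 and 0.066 with library size alone. That of Epas1 was 0.078 without wild-type replicate 2. In CPM, knockout libraries lay wholly below wild type for 5 of the 43 genes and wholly above for 1. Of all tested genes in CPM, 5.48% lay wholly below and 6.12% wholly above. In TPM 3 of the 43 lay below and 3 above, and by library size alone 3 below and 2 above. These 2 scalings were added after the data were seen, and their shares over all tested genes were not computed.

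Same-numbered libraries of the 2 genotypes correlated at 0.14, 0.057 and 0.0034 in their deviations, so the numbers were not taken as pairs. With the replicate block 0 of the 43 genes was called, the median was -0.09, and 20 genes were called over all.

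Shares of a step moved mostly with the length used. Without a length correction Slc2a1 held 36.1%, Hk3 34.3%, Pfkl 40.1% and Bnip3 39.4%, and Slc2a3, Hk1, Pfkp and Bnip3l then led. The same setting gave Pfkfb3 97.9%, Pgam1 99.3%, Eno1 98.8%, Ldha 99.96%, Slc16a3 97.1%, Egln3 81.0% and Pdk1 84.2%. With the longest transcript they were 43.4% for Hk3, 60.9% for Pfkl, 98.7% for Eno1, 97.2% for Slc16a3, 80.2% for Egln3 and 99.76% for P4ha1. The strand sum gave Slc2a1 51.1%, Gapdh 99.97% and Bnip3 72.8%, and summed copies gave Eno1 99.4%. Leaving out a library kept the leader of every step, by mean share.

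Genes under about 1 CPM (Pfkm, Epas1, Eno2, P4ha2) rest on too few counts for a firm fold change. No fit compared these cells with neutrophils outside the cornea.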
